A study of Mus musculus with 60 samples.

Results

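Set2_2 and Set2_6 are 2 of the 10 organoids of Set 2 that the study kept, and they were chosen by their measured levels of 2 genes, high Fah and low Epcam. The rule asked for at least 35 CPM (counts scaled to library size) of Fah and under 250 CPM of Epcam, read to whole CPM, and no other of the 35 single organoids kept met it (42 were sequenced, in a series of 60 samples). The comparison throughout is with the other 8 kept organoids of Set 2 (Set2_1, Set2_3, Set2_4, Set2_5, Set2_7, Set2_9, Set2_10 and Set2_11). All 10 were picked as single organoids at passage 3 from one suspension culture, which had been started from the liver of 1 male C57BL/6N mouse of 3 to 4 months. They are thus organoids of one animal and one culture, without genetic change or drug, and differences among them are not between animals. They were taken from different wells, so well and organoid cannot be told apart. The other 25 kept organoids come from 3 further mice (passage 11 for the 8 organoids of Set 1, passage 3 for the 5 of Set 3 and passage 4 for the 12 of Set 4), and 7 more libraries were sequenced but left out by the study after its check of quality and size. A further experiment of the same series set 3 Matrigel dome cultures beside 3 suspension cultures.

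Liver organoids of this type grow from bile duct fragments and keep the features of cholangiocytes, the epithelial cells that line the bile ducts. In the liver, Fah belongs to hepatocytes, where fumarylacetoacetate hydrolase catalyses the last step of tyrosine breakdown, whereas Epcam, an adhesion molecule of the epithelial cell surface, marks duct and progenitor cells. Ductal organoids can be moved towards a hepatocyte programme by changes in the medium, which is why a mature hepatocyte gene and a ductal gene are often read against each other.

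Both genes chose the organoids, so their levels are a description and were not tested. Fah stood at 40.7 CPM in Set2_2 and 35.0 CPM in Set2_6, against a lowest value of 9.67, a median of 14.5 and a highest value of 16.8 CPM in the other 8. Epcam stood at 209.5 CPM and 243 CPM, against a lowest value of 423, a median of 629 and a highest value of 1245 CPM. In the 25 organoids of the other sets Fah spanned 5.19 to 19.6 CPM and Epcam 333 to 794 CPM. Just outside the rule within Set 2 lay Set2_1, with 16.8 CPM of Fah and 423 CPM of Epcam. The Fah values rest on 47 and 38 counts, and their exact Poisson 95% intervals ran from 29.9 to 54.1 CPM in Set2_2 and from 24.7 to 48.0 CPM in Set2_6, which covers counting error only. On plain totals, without scaling between libraries, Fah was 36.2 and 32.2 CPM and Epcam 186 and 224 CPM.

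**Figure D1:**
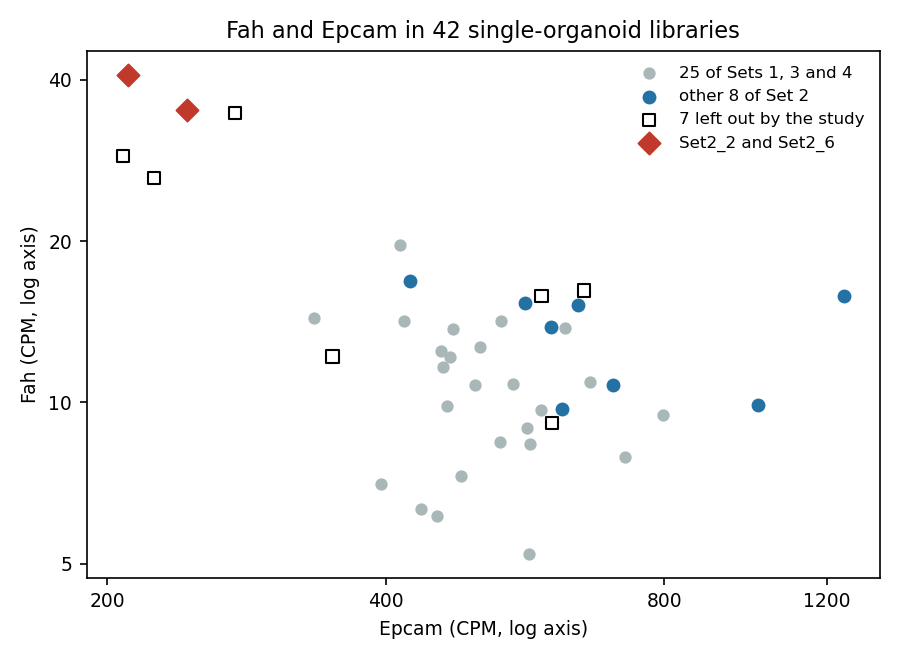
Each point is 1 single-organoid library, with Epcam on the horizontal and Fah on the vertical axis, both in CPM scaled over all 42 libraries and drawn on log axes. Set2_2 and Set2_6 lie at the upper left with 3 of the 7 libraries left out by the study, while the other 33 kept organoids lie below 20 CPM of Fah and above 330 CPM of Epcam.

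The starts of both genes are shown because these transcripts define the organoids. The sequences are from RefSeq on GRCm38.p6, begin 40 bases before the annotated start and end 25 bases into the transcript. Fah lies on the minus strand (chr7:84605918-84605982) and Epcam on the plus strand (chr17:87635939-87636003).

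Fah: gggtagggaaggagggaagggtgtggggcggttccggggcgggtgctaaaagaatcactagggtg

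Epcam: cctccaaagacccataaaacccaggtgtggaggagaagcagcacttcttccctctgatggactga

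The libraries of the pair also stood apart in ways that are not levels of single genes, and these values belong beside every count below. Set2_2 held 1298591 counts and Set2_6 1180937, the lowest totals of the 10, where the other 8 held 1524980 to 4522826. They detected 14166 and 13983 genes against 16018 to 18480 in the other 8, and after thinning all 10 to 1180937 counts still 13953 and 13983 against 14113 to 15568. Cytosolic ribosomal protein genes took 21.002% and 21.8% of the counts, against 13.6% to 20.3% in the other 8 and 14.1% to 23.7% in the organoids of the other sets, within which the pair lay. The share of mitochondrially encoded genes, 3.96% and 3.84%, lay within the other 8, which spanned 2.54% to 5.07%. Actb, the cytoplasmic actin gene whose level by qPCR set the amount of mRNA that entered each library, was 1067 and 1040 CPM in the pair and 1718 to 4126 CPM in the other 8, and all 25 organoids of the other sets lay above both. The part of depth, mRNA input and RNA quality in the differences was not tested, and less RNA per cell cannot be told apart here from fewer cells of a kind.

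The pair resembled each other more than they resembled the rest. Over 45 pairs of organoids within Set 2, the Spearman correlation over genes was 0.96 between Set2_2 and Set2_6, 0.90 to 0.95 between either of them and the other 8, and 0.92 to 0.97 among the other 8. In a principal component analysis of the 10, the first component held 41.1% of the variance and placed Set2_2 at 72.1 and Set2_6 at 67.8, followed by Set2_11 at 37.1 and Set2_1 at 13.4. They were separate libraries by their counts, which differed with a chi-square of 2.19 per degree of freedom. Other pairs of Set 2 gave 3.94 to 46.6. This chi-square was taken on raw counts and grows with depth, and the pair were the 2 smallest libraries of the 10. On scaled levels 2422 genes differed at least 2-fold between Set2_2 and Set2_6. The range was 1052 to 4194 genes among the other 8 and 2700 to 5350 between either of the pair and the other 8.

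Beyond Fah and Epcam, a gene was counted as apart where both organoids lay above all of the other 8, or both below, on the log2 CPM scale. Of 13925 genes, 1585 were higher (11.4% of the genes tested) and 2137 were lower (15.3%). With a difference of at least 2-fold between the means, 399 genes were higher (2.87%) and 1394 were lower (10.0%). These shares are the background for every list below, and no p-value is given for 2 against 8 because measured levels of the same libraries chose the pair. The split depended on scaling: 42.6% of the genes apart were higher with TMM factors, 50.0% with RLE factors, 27.8% without factors and 51.3% after thinning to equal depth. The median difference over all genes was -0.12 log2 with TMM, -0.05 with RLE and -0.30 without factors. Set2_11 was the nearest of the other 8 for 35.0% of the genes higher and 48.0% of the genes lower, and without it the counts were 2271 and 2976.

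Against all other 33 kept organoids, both organoids lay above in 578 genes (4.15% of the genes tested) and below in 740 (5.31%). These are 36.5% of the genes higher and 34.6% of the genes lower within Set 2.

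Among genes with a mean log2 CPM of at least 4, the largest difference upwards was in Polr2k, which encodes a small subunit shared by the nuclear RNA polymerases. It stood at 216 CPM in Set2_2 and 223 CPM in Set2_6, against a lowest of 28.2, a median of 38.5 and a highest of 70.4 CPM in the other 8, a 5.23-fold difference of means on the log2 scale. All 25 organoids of the other sets lay below both. Next came Gm8623, Gm14541, Rps12-ps20 and Gm15421, all annotated as pseudogenes, which were 3.63-fold to 3.89-fold higher. Reads of pseudogenes and of genes with processed copies can be shared between near-identical sequences and are uncertain one by one. Among ribosomal protein genes and copies, Rpl36a was 4408 and 4442 CPM against 915 to 2679 CPM, its copy Rpl36a-ps2 was 2501 and 2456 CPM against 558 to 1460.2 CPM, and Rpl22l1, a paralogue of a large-subunit protein, was 421 and 485 CPM against 98.7 to 255 CPM. The unprocessed pseudogenes Gm13340 and Gm29216 were 3.15-fold and 3.12-fold higher, and 1 of the 25 organoids of other sets lay above both in each. Of the other genes, Vasp, an actin filament elongation factor, was 62.3 and 109.5 CPM against 17.0 to 35.8 CPM, and Cdt1, which licenses replication origins, was 123 and 151 CPM against 35.5 to 63.9 CPM.

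At the same minimum level, the 12 largest differences downwards were in 5 histone genes, 5 processed pseudogenes, Fhl3 and Pfn1. Fhl3, a LIM-domain protein that binds actin, was 3.46 and 10.1 CPM against a lowest of 35.8, a median of 50.1 and a highest of 91.8 CPM in the other 8. Pfn1, which hands actin monomers to growing filaments, was 102 and 123 CPM against 457 to 1223 CPM. In both genes the groups were well separated, and all 25 organoids of the other sets lay above both. Histone genes of the large cluster on chromosome 13 made up 5 of the 12 largest. Hist1h2ap, a histone H2A gene, was 214 and 164 CPM against 807 to 2249 CPM. Hist1h2ao, Hist1h2ag, Hist1h2af and Hist1h2ae were 6.20-fold to 7.79-fold lower. Sharing of reads among these 5 genes was not tested, nor was how well poly(A) libraries capture histone transcripts. The remaining names were processed pseudogenes: Eif4a-ps4 was 7.17-fold lower, and Gm48359, Gm14730, Gm11560 and Gm14398 were 5.81-fold to 5.96-fold lower. Birc2, an inhibitor of apoptosis that acts in NF-kB signalling, had no count in either organoid, while the other 8 held 2.35 to 9.15 CPM, and measured against 3 counts over both libraries it was at least 4.95-fold lower.

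**Figure D2:**
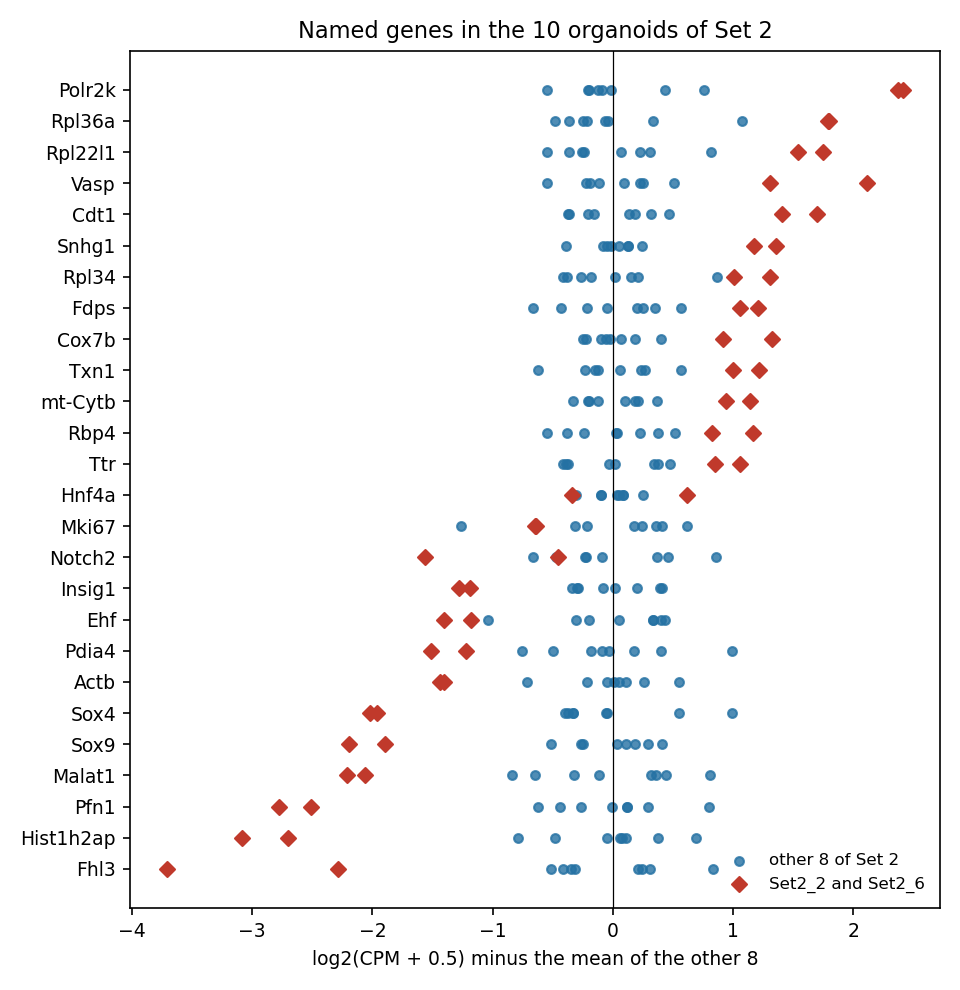
For 26 named genes, each point is 1 organoid of Set 2, placed by its log2(CPM + 0.5) minus the mean of the other 8, with Set2_2 and Set2_6 as diamonds. Both diamonds lie on one side of all circles in all genes but Hnf4a, Mki67 and Notch2, and reach furthest in Polr2k upwards and in Fhl3 and Hist1h2ap downwards.

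Few hepatocyte genes were apart. Of 22 measured members of the hepatocyte list, 4 were higher (18.2%, background 11.4%) and 0 were lower (background 15.3%). The 4 were Rbp4, Ttr, Alb and Ambp, which encode secreted plasma proteins. In the 25 organoids of other sets, tested below, 7 of 20 list members rose with the ratio of Fah to Epcam. Ttr, the carrier of thyroxine, was 1475 and 1273 CPM against 530.3 to 986 CPM, and Rbp4, the carrier of retinol, was 133 and 105 CPM against 40.2 to 84.6 CPM. Alb was 6.93 and 5.52 CPM against 1.07 to 4.68 CPM, a low level in all 10. None of these was particular to the pair across sets: 9 of the 25 other organoids exceeded both in Ttr, 3 in Rbp4 and 2 in Alb. The transcription factor Hnf4a lay just below the other 8 in one organoid of the pair and above them in the other, with 17.3 and 34.05 CPM against 17.8 to 26.4 CPM. Of the 37 members in the count table, 15 had no count in either organoid, among them the mature hepatocyte genes Cps1, Arg1, Cyp2e1, Cyp3a11 and Tat. These zeros do not set the pair apart: the other 8 together held 1, 4, 3, 0 and 0 counts of these genes, in the same order. Summed over the list, on plain totals, the pair held 1781 and 1609 CPM, above the 869.7 to 1418 CPM of the other 8 and within the 742 to 3729 CPM of the other sets.

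Of 18 measured genes of tyrosine and amino acid breakdown, 0 were higher and 1 was lower, Mut, the mitochondrial methylmalonyl-CoA mutase, with 9.52 and 12.0 CPM against 15.8 to 23.6 CPM. The list's median difference was 0.05 log2, and 2 of the 18 were higher with RLE factors and 2 with the length and GC trend removed.

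Ductal genes divided. Of 32 measured members of the ductal and progenitor list other than Epcam, 2 were higher (6.25%) and 9 were lower (28.1%, background 15.3%). Sox9, the transcription factor that marks duct cells, was 25.98 and 32.2 CPM against a lowest of 84.6, a median of 127 and a highest of 161 CPM, and all 25 other organoids lay above both. Sox4, a related factor of the duct, was 54.5 and 57.1 CPM against 169 to 443 CPM, and Ehf, an epithelial ETS factor, was 166 and 143 CPM against 184 to 510.1 CPM. Itga6, Bicc1, Onecut1, Pkhd1, Onecut2 and Cldn7 were also lower, with differences of -1.24 to -0.64 log2. Tff2, named below among the gut-like secretory genes, was among the members that were higher. Over the 32 members the median difference was 0.013 log2, above the -0.12 of all genes, and 18 members had a positive difference. The abundant keratins and the secreted marker lay within the range of the other 8: Krt19 was 397 and 317 CPM against 274 to 547 CPM, Krt7 was 400.02 and 359.8 CPM against 259 to 647 CPM, and Spp1 was 3193 and 2920.0 CPM against 1635 to 5311 CPM, all 3 with overlapping groups. After thinning, 7 members were lower, and after the trend with transcript length and GC content was removed, 4 were.

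The Notch pathway, which specifies the bile duct, had 0 of 21 measured members higher and 6 lower (28.6%, background 15.3%). These were the ligand Jag1, the ligand-releasing and receptor-cleaving protease Adam17, the DNA-binding factor Rbpj, the coactivators Maml2 and Maml3 and the target Hes1. Jag1 was 492.7 and 425 CPM against 591 to 1836 CPM, whereas Rbpj, with 20.8 and 21.2 CPM against 21.7 to 60.7 CPM, was separated from the nearest of the other 8 by 0.03 log2 only. The receptor Notch2 overlapped, with 16.5 and 7.36 CPM against 14.2 to 41.7 CPM. The count depended on processing, with 3 lower under RLE factors and 1 after removal of the length and GC trend.

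Genes of Wnt signalling were lower for 3 of 24 measured (12.5%) and higher for 1. The receptor Lgr4 was 13.9 and 8.28 CPM against 15.5 to 35.6 CPM, the receptor ligase Znrf3 was 14.7 and 10.1 CPM against 17.0 to 47.2 CPM, and the ligand Wnt7b, the one that was higher, was 210.4 and 197 CPM against 76.1 to 161 CPM. Wnt4, with no count in the pair and at most 2.05 CPM in the other 8, could not be read as a fold. The stem cell receptor Lgr5 overlapped and was scarce, with 2.60 and 1.84 CPM against 1.59 to 16.9 CPM. Without scaling factors 9 Wnt genes were lower. YAP targets were at 2 higher (Msln and Fosl1, 8.33%) and 3 lower (Sox4, Ccn1 and Arhgef17, 12.5%) of 24, both shares below the background of 11.4% and 15.3%. Epithelial junction genes were at 3 higher (9.68%) and 4 lower (12.9%) of 31, also below the background. The higher ones were led by the splicing factor Esrp1 with 148 and 138 CPM against 49.3 to 87.4 CPM, and the lower ones included the scaffold gene Tjp3.

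Sterol genes were apart in both directions. Of 25 measured, 5 were higher (20.0%, background 11.4%) and 4 were lower (16.0%, near the background of 15.3%). Without scaling factors 2 were higher and 5 lower, when 7.73% and 20.1% of all genes were. With the length and GC trend removed 8 were higher and 2 lower, when 16.2% and 10.7% of all genes were. Fdps, which makes farnesyl diphosphate, was 481 and 433 CPM against 131 to 308 CPM, above all 25 other organoids. Sqle and Srebf2 were higher by 0.52 to 0.69 log2. Insig1, which holds the sterol sensor in the endoplasmic reticulum, was lower with 37.2 and 39.6 CPM against 71.9 to 121 CPM, as were Cyp51 and Tm7sf2 of the synthesis pathway. Of 20 genes of fatty acid synthesis and lipid droplets, Fads1, Agpat2 and the scarce Acacb were higher and Plin3 was lower.

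Detoxifying and antioxidant genes were higher more often than the background. Of 32 measured genes of xenobiotic metabolism, 10 were higher (31.2%) and 3 were lower (9.38%), with a median difference of 0.67 log2. Those higher included the conjugating enzymes Sult1a1, Gsta1, Gsta3, Gsta4, Gstm1 and Mgst1, the carboxylesterase Ces2g, the epoxide hydrolase Ephx1, Cyp3a13 and Aldh1a1, and those lower were Mgst3, Cyp2j6 and the receptor Ahr. Sult1a1 was 21.6 and 25.8 CPM against 4.28 to 13.1 CPM, and 5 of the 25 other organoids lay above both. Of 32 measured Nrf2 targets and partners, 9 were higher (28.1%) and 3 were lower (9.38%), with a median of 0.47 log2. Txn1, the main cytosolic thioredoxin, was 8474 and 7301 CPM against 2375 to 5394 CPM and Ftl1, the ferritin light chain, was 6631 and 5522 CPM against 2027 to 4171 CPM, both above all 25 others. Keap1, which targets Nrf2 for degradation, was lower with 18.2 and 10.1 CPM against 22.2 to 30.4 CPM. Of 20 gut-like secretory genes 6 were higher (30.0%), namely Lgals2, Lgals3, Lgals4, Ctse, Tff2 and Tff3, and 1 was lower, Cldn18.

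Of 41 measured genes of the unfolded protein and integrated stress response, 10 were lower (24.4%) and 2 were higher (4.88%), and the median difference of -0.17 log2 was near the -0.12 of all genes. The lower ones were chaperones and folding enzymes of the secretory pathway: Pdia3, a disulfide isomerase, was 268 and 287 CPM against 535 to 935 CPM, and Hspa5, the main luminal chaperone, was 561 and 649 CPM against 719.9 to 2028 CPM. Pdia4, Hyou1, Sdf2l1, Canx, Calr, Dnajc3, Hsp90b1 and Sel1l completed the group, and the higher ones were Slc3a2, an amino acid transporter subunit, and Nupr1. After thinning 10 were lower, and after removal of the length and GC trend 8. With Set2_8, a library with a profile close to the pair, added to the comparison organoids, 2 were lower, when 6.99% of all genes were.

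Genes of protein synthesis and respiration that were apart were all higher with TMM factors. Of 75 cytosolic ribosomal protein genes, 34 were higher (45.3%) and 0 were lower, 71 had a positive difference, and the median was 0.57 log2. Rps27a was 4874 and 5013 CPM against 1556 to 3005 CPM and Rpl34 was 4454 and 5481 CPM against 1655 to 4038 CPM. Of 75 nuclear genes of oxidative phosphorylation, 24 were higher and 0 were lower, 73 had a positive difference and the median was 0.60 log2, with Cox7b at 591 and 782 CPM against 263 to 412 CPM. Of the ribosomal protein and oxidative phosphorylation genes, 41 and 32 were higher after thinning, when 11.5% of all genes were. With the length and GC trend removed 43 and 37 were higher, when 16.2% of all genes were. Without scaling factors 29 and 21 were higher, and 2 ribosomal protein genes and 1 oxidative phosphorylation gene were lower. Transcripts of the mitochondrial genome divided: of 15, mt-Cytb was higher, with 24090.3 and 21005 CPM against 8687 to 14119 CPM, and the ribosomal RNAs mt-Rnr1 and mt-Rnr2 were lower.

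**Figure D3:**
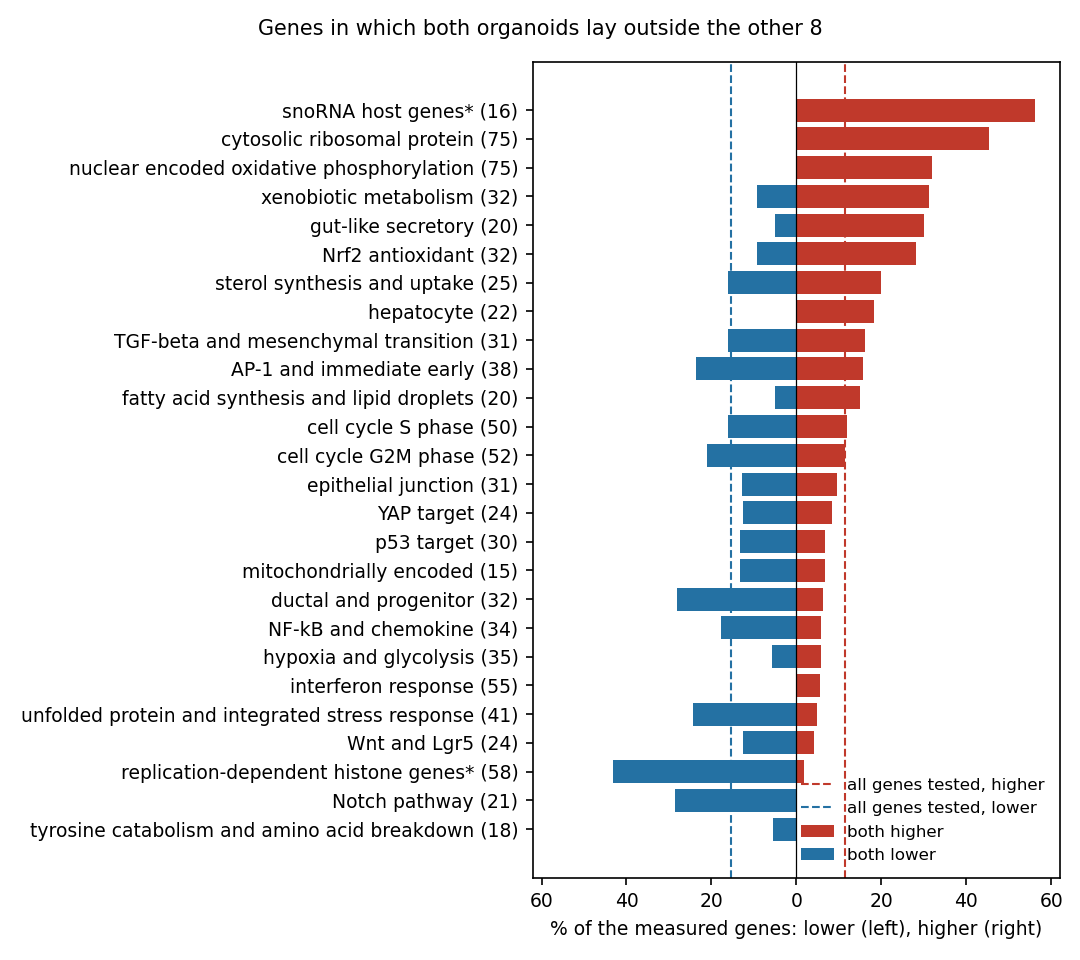
Bars give, for each list with at least 15 measured genes (number in brackets), the share in which both organoids lay above (right) or below (left) the other 8, and dashed lines mark the same shares over all 13925 genes. Ribosomal protein and oxidative phosphorylation genes extend furthest to the right among the pathway lists with 0 to the left; lists with an asterisk were assembled after values were seen.

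Host genes of small nucleolar RNAs, many of which start with a pyrimidine tract as ribosomal protein genes do, were higher too in a group assembled after values were seen: 9 of 16 were higher and 0 lower. Snhg1 was 133 and 151 CPM against 44.7 to 69.7 CPM and Zfas1 was 294 and 342 CPM against 113 to 167 CPM. The starts of 5 ribosomal protein or host genes that were higher are shown, again from RefSeq on GRCm38.p6. They were picked among genes with the letters CTTTC within 25 bases of the annotated start on the transcribed strand. All 5 therefore carry these letters, which are in capitals.

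Rpl38 (chr11:114668540-114668604, plus strand): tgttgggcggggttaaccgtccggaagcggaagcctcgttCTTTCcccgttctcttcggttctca

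Rps27 (chr3:90213624-90213688, minus strand): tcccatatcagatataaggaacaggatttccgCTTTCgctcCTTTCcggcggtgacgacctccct

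Rpl27a (chr7:109519155-109519219, plus strand): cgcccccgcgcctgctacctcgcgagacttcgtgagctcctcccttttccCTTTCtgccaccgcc

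Snhg12 (chr4:132308638-132308702, plus strand): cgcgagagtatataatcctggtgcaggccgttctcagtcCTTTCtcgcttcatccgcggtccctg

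Snhg9 (chr17:24719941-24720005, minus strand): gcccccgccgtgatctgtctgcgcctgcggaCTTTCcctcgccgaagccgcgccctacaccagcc

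On the transcribed strand, CTTTC lay within 25 bases of the start in 5.39% of 9426 promoters of measured genes, in 7.16% of those of genes higher and in 5.23% of those of genes lower. Among 55 ribosomal protein promoters the share was 30.9%, with 6 of the 24 higher members and 11 of the 31 not apart. Among 14 snoRNA host promoters it was 14.3%, which is 2 promoters, and both are among the starts shown. On the opposite strand (GAAAG) the shares were 4.28% over all, 4.20% for genes higher and 4.36% for genes lower. The letters are given as a description.

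Cell cycle genes were mixed. Mki67, the proliferation marker, overlapped, with 223 and 225 CPM against 146 to 537 CPM. Of 50 S-phase genes 6 were higher (12.0%) and 8 lower (16.0%), and of 52 G2/M genes 6 were higher (11.5%) and 11 lower (21.2%). The higher ones included the replication licensing genes Cdt1, Mcm5, Mcm6 and Mcm7 and the kinases Cdk1 and Aurka, and the lower ones the polymerase alpha gene Pola1, the chromatin assembly gene Chaf1a and the spindle and kinetochore genes Cenpf, Prc1 and Hmmr. Replication-dependent histone genes, a group assembled after values were seen, were lower for 25 of 58 measured (43.1%) and higher for 1. Their summed level on plain totals was 472 and 423 CPM in the pair, 1736 to 4161 CPM in the other 8 and 462 to 3250.2 CPM in the other sets. The limits on histone reads given above apply to this group as well.

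Signalling and stress lists are given beside the background of 11.4% higher and 15.3% lower. AP-1 and immediate early genes had 6 higher (15.8%) and 9 lower (23.7%) of 38: Junb, Klf2 and Ier2 were higher, whereas Fos, Klf6 and the phosphatases Dusp5 and Dusp8 were lower. NF-kB and chemokine genes had 2 higher (5.88%) and 6 lower (17.6%, near the background) of 34. Among them, the chemokine Ccl5 was 14.7 and 13.8 CPM against 3.03 to 9.18 CPM and Nfkb1 was 19.0 and 7.36 CPM against 24.9 to 65.2 CPM. Interferon response genes had 3 higher of 55 (5.45%), the antigen presentation genes H2-K1, B2m and Psmb10, and 0 lower. TGF-beta genes had 5 higher and 5 lower of 31 (16.1% each), with the common mediator Smad4 at 23.4 and 17.5 CPM against 49.1 to 92.8 CPM. The p53 list had 2 higher (6.67%) and 4 lower (13.3%) of 30, and hypoxia and glycolysis genes 2 and 2 of 35 (5.71% each).

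Other cell types left few counts. Of 9 mesenchymal markers with a row of counts, none had a count in the pair, and their summed level on plain totals was 0 to 2.62 CPM in the other 8. Of the 12 endothelial markers with a row of counts, 6 had none, 0 of 5 measured were apart, and the summed level on plain totals was 27.7 and 27.1 CPM against 19.3 to 50.9 CPM. Among leukocyte genes Ptprc, Lyz2 and Tyrobp had no count, while Cd14, with 1006 counts over both organoids, was higher at 465.8 and 431 CPM against 237 to 430.2 CPM. The haemoglobin genes Hba-a1 and Hba-a2 had no count, and Klf1, the only erythroid gene measured, was higher at 1.73 and 1.84 CPM against 0 to 0.61 CPM, on 2 counts in each organoid. The nuclear long noncoding RNA Malat1 was 676 and 609 CPM against 1577 to 4945 CPM, and Kcnq1ot1 was lower as well, while the host genes Snhg1, Snhg8, Snhg12 and Gas5 of the same list of 8 were higher.

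The genes apart differed in length, which the rule did not use. Protein-coding genes that were higher had a median transcript length of 2114 bases and those lower 3948 bases, against 3076 bases over all 11389 measured. The 3′ untranslated part had a median of 612, 1580 and 1110 bases in the same order and the exon number a median of 7, 11 and 9. GC content had a median of 52.8% in genes higher, 47.3% in genes lower and 50.1% over all. Across genes the difference correlated with transcript length at a Spearman rho of -0.37 and with GC content at 0.28, as a description over genes that share the same 10 libraries. Pseudogenes made up 15.5% of the genes higher and 7.11% of those lower, beside 10.6% of all. Removal of a smooth trend with length and GC content from each organoid, chosen after seeing the data, left 2252 genes higher and 1489 lower of 13914.

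**Figure D4:**
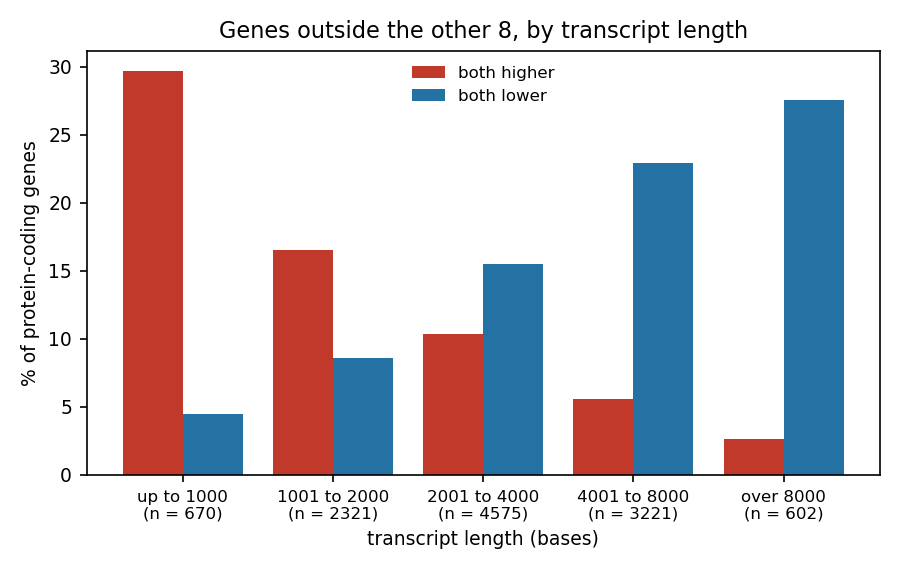
Bars give the share of protein-coding genes in 5 classes of transcript length in which both organoids lay above or below the other 8. The share higher is 29.7% in transcripts of up to 1000 bases and 2.66% above 8000 bases, and the share lower is 4.48% and 27.6%.

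The pattern could then be looked for in libraries that took no part in choosing the pair. A profile score was formed for each library as the mean log2 CPM of the 1027 genes higher minus that of the 1288 genes lower, taken over genes with a mean log2 CPM of at least 4 and set to a mean of 0 in the other 8. By construction Set2_2 and Set2_6 scored high, at 1.99 and 1.84. The other 8 spanned -0.40 to 0.62, Set 1 -0.50 to 0.98, Set 3 -0.49 to 0.24 and Set 4 -0.10 to 1.09, so no kept organoid outside Set 2 reached the pair. Of the 7 libraries left out by the study, 3 did come close: scaled over all 42 libraries, Set2_8 scored 1.81, Set1_10 scored 1.80 and Set3_2 scored 1.39, while the other 4 lay between -0.27 and 0.09. These 3 came from 3 mice. Set2_8 had Fah at 34.7 CPM, Epcam at 275 CPM, Actb at 1028 CPM and Pfn1 at 133 CPM, and Set1_10 had 28.9, 208, 1456 and 152 CPM for the same genes. Set3_2 had 26.2, 225, 1151 and 74.96 CPM. Polr2k, by contrast, was 347 CPM in Set2_8 but 91.2 CPM in Set1_10 and 41.2 CPM in Set3_2, and Birc2 was above 2 CPM in all 3. Set2_8 was then returned as an 11th organoid, on the side of the other 8. In this setting 796 genes were higher and 974 lower in the pair, which are 5.72% and 6.99% of the genes tested. In that comparison 7 of 75 ribosomal protein genes, 6 of 75 oxidative phosphorylation genes, 4 of 32 genes of xenobiotic metabolism and 3 of 32 of the Nrf2 list were higher, and 4 of 32 ductal, 1 of 21 Notch, 2 of 41 stress response and 8 of 58 histone genes were lower. The ribosomal, oxidative phosphorylation and Nrf2 shares were then close to that background, and the Notch and stress response shares below it. Set2_8 itself scored close to the pair and had 22.4% of its counts in ribosomal protein genes. A gene in which Set2_8 lay with or beyond the pair can no longer count as apart. These shares therefore cannot tell whether the list results hold. Set2_8 was left out by the study and its values are given with no test.

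**Figure D5:**
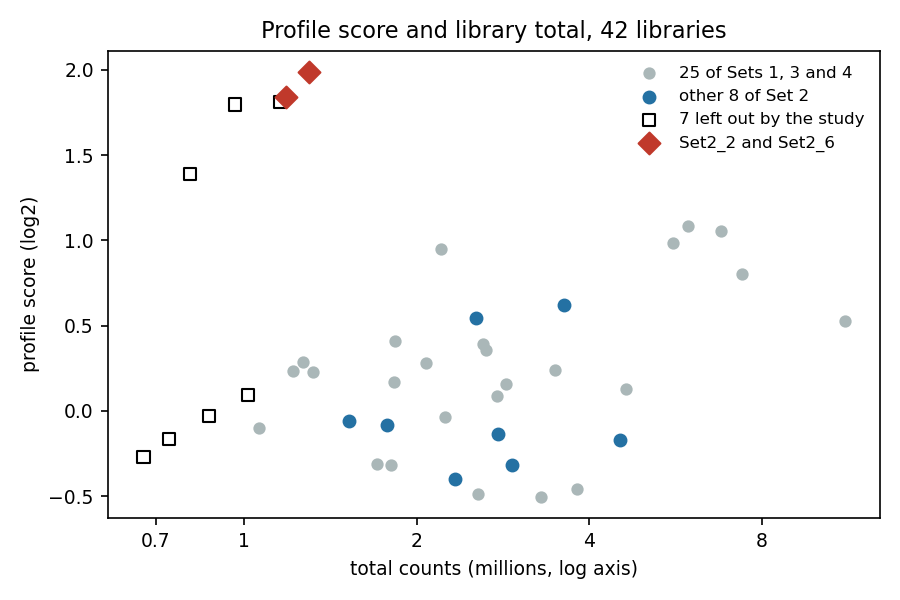
Each point is 1 of the 42 libraries, with the total count on a log axis and the profile score in log2 units. Set2_2, Set2_6 and 3 left-out libraries form the group at the upper left between 1.39 and 1.99, whereas 4 left-out libraries and the smallest kept libraries of the other sets lie below 0.3 at similar totals.

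Small libraries of the other sets had lower scores. The 2 smallest kept libraries of Set 1 held 1214403 and 1267964 counts and scored 0.23 and 0.29, and the smallest of Set 4 held 1059002 counts, less than either of the pair, and scored -0.10 with Fah at 9.44 CPM and Epcam at 794 CPM. Within sets, the Pearson correlation of the score with log2 total was 0.25 in Set 1 (n = 8), 0.17 in the other 8 of Set 2, 0.71 in Set 3 (n = 5) and 0.80 in Set 4 (n = 12). These are descriptions over libraries of one mouse each.

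Whether the genes apart also follow the balance of Fah to Epcam elsewhere was tested in the 25 organoids of Sets 1, 3 and 4, with the set as a covariate and the log2 ratio of Fah to Epcam as the score. The ratio spanned -6.61 to -4.36 there, and -2.77 and -2.35 in the pair. Of 13460 genes, 0 were called in either direction by edgeR's quasi-likelihood test after Benjamini-Hochberg adjustment at 0.05, while 3189 had an unadjusted p under 0.05, and the smallest adjusted p was 0.0883. limma-voom called 0 genes and DESeq2 called 266 positive and 343 negative. The direction of the fitted slopes went with the pair: 1368 of 1562 genes higher had a positive slope (87.6%, against 50.5% of all genes) and 1805 of 2101 genes lower had a negative slope (85.9%, against 49.5%). These counts at an unadjusted p depended on the sets and on depth. At an unadjusted p under 0.05, 521 genes higher had a positive and 7 a negative slope, and 648 genes lower had a negative and 13 a positive slope; after thinning the counts in the direction of the pair were 262 and 351, without Set 1 they were 115 and 529, and without Set 4 they were 260 and 174. Library size as a further covariate gave 189 positive and 247 negative calls. Leaving out Set3 replicate 1 gave 77 and 166.

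The scores were then taken apart. With Fah alone as the score 0 genes were called, and 753 had an unadjusted p under 0.05. With Epcam alone and its sign turned, 2575 genes were called positive (19.1%) and 2343 negative (17.4%), among them 619 of the 1562 genes higher as positive and 955 of the 2101 genes lower as negative, with 19 and 23 called the other way. Genes with the smallest adjusted p in the ratio fit that were also apart in the same direction included Ecscr (slope 0.69 log2 per log2 unit of the ratio, adjusted p = 0.0883 by edgeR), Rbm8a2, Tmed1 and Bex3 on the higher side. On the lower side they were Erbin, which scaffolds receptors at the basolateral membrane (slope -0.67, adjusted p = 0.0883 by edgeR), Zfr, Frg1, Gm6206 and Lysmd3. For Fdps the slope was 0.38 (adjusted p = 0.0984) and for Sox9 -0.37 (adjusted p = 0.168), both by edgeR, and neither passed. Oxidative phosphorylation genes had a positive slope in 72 of 75, 55 of them at an unadjusted p under 0.05, and ribosomal protein genes in 71 of 75, 17 of them at that level, with 0 called after adjustment in both lists. The hepatocyte list, in contrast, had a positive slope in 7 of 20. A test of whether slopes differed between Set 1 and Set 4 called 0 of 13460 genes (636 at an unadjusted p under 0.05, smallest adjusted p 0.709, edgeR).

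The levels of 5 markers were related to Fah within Set 1 and within Set 4, which makes 10 relations. Fah and Epcam had r = -0.42 and rho = -0.36 in Set 1 (n = 8, exact two-sided permutation p = 0.306 and 0.389, adjusted 0.614 and 0.556), and r = -0.23 and rho = -0.31 in Set 4 (n = 12, two-sided permutation p = 0.486 and 0.332, adjusted 0.614 and 0.556). None of the 10 Pearson correlations passed after adjustment. Without the 2 organoids farthest from the Fah median the r of Fah and Epcam in Set 1 turned to 0.20, and that in Set 4 was -0.35.

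The genes apart were last set beside the effect of the culture format. The 3 dome and 3 suspension cultures were each made from the pooled livers of several mice. Without pairing of the cultures, edgeR's quasi-likelihood test called 1907 of 12699 genes higher in domes (15.02%) and 1872 lower (14.7%). With the culture number as a block it called 2028 and 1991. The counts and p-values below are from the fit without pairing. Of the 1528 genes higher in the pair that were measured there, 346 were higher in domes (22.6%) and 130 lower, and of the 1940 genes lower in the pair, 551 were lower in domes (28.4%) and 114 higher. Malat1, Sox4 and Hist1h2ap were among those lower in both: Malat1 was 136 ± 70.7 CPM in domes and 1007 ± 266 CPM in suspension (SD, n = 3 each, adjusted p = 0.00201 by edgeR), and Sox4 was 13.7 ± 9.12 and 93.5 ± 28.1 CPM (adjusted p = 0.00361 by edgeR). Fah went the other way and was lower in domes, at 6.92 ± 5.94 against 22.0 ± 4.88 CPM (SD, n = 3 each, adjusted p = 0.0416 by edgeR). Epcam was 387 ± 93.0 against 414 ± 19.5 CPM (adjusted p = 0.774 by edgeR), and Polr2k, Pfn1 and Sox9 did not pass either (adjusted p from 0.252 to 0.898 by edgeR). Leaving out 1 suspension culture lowered the calls by over 1.5 times, to 929 to 1064 higher and 950 to 1145 lower in domes, and to 159 to 179 and 285 to 366 for the genes shared in direction with the pair.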

How the data were processed

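The data were gene counts of unique molecular identifiers from barcoded poly(A) RNA-seq of 42 single organoids and of 3 dome and 3 suspension cultures. Per the labels and the methods of the study, mRNA input was equalised by Actb qPCR, reads were mapped to GRCm38 with STAR, counted with featureCounts, and libraries were down-sampled in zUMIs before the authors deposited raw counts; the submitters' notes name SAMtools 1.9, R 3.6.3, edgeR 3.28.1 and limma 3.42.2. A bulk passage table was not used here. Totals ranged from 1059002 to 11175868 counts in the 35 kept organoids. Genes passing filterByExpr (minimum count 3) were 13927 of 28773, and 42 identifiers had no symbol.

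Levels are CPM with TMM factors, and log2 levels have a prior count of 2 (edgeR 4.0.16). The rule on Fah and Epcam was applied to levels rounded to whole CPM, since Fah in Set2_6 was 34.97. The members and lists were chosen with earlier results of these data known. Genes named are the study's markers, the 12 largest differences in each direction among genes apart with a mean log2 CPM of at least 4, the 5 widest gaps, up to 3 genes per list, and the 5 leading genes of the slope fit in each direction; further list members apart, list members named as not apart, and the genes Krt7, Krt19 and Spp1 were added after their values were seen. Slopes and culture effects were fitted with edgeR's quasi-likelihood test, with limma-voom (limma 3.58.1) and DESeq2 1.42.0 as alternatives, and adjusted by Benjamini-Hochberg over all genes. Each script was tested on simulated data. Gene lengths and GC content are of the longest basic transcript of GENCODE vM21 on GRCm38. Organoids of a set share 1 mouse, so p-values over organoids measure the spread between organoids. Dome and suspension cultures came from pools of mice. There, residuals of same-numbered dome and suspension samples correlated at 0.15, 0.16 and 0.19, which points to pairs by number, from the data. The sources do not say which pool each number marks. The main fit of culture did not use this pairing, and the culture number was a block in an alternative. Some genes that meet the rule for named genes are not reported here.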

Additional observations from a re-analysis of the deposited data

Results flagged for a closer look

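Of 42 comparisons within Sets 1, 2 and 3 of marker levels, library measures and the profile score, 1 sample lay further from its group than the critical gap allows, where chance gives about 1 in 20. It was the total of Set1_1, with 11175868 counts. The gap runs from 1 extreme sample to the next, so it cannot flag Set2_2 and Set2_6 where they lie together at one end. In Set 2 the comparisons therefore say nothing on the pair. The other values given here come from libraries that the study left out and that enter the main comparison in no case (Set2_8 was returned only as an 11th organoid): the profile scores of Set1_10, Set2_8 and Set3_2, at 1.80, 1.81 and 1.39, lay above the highest of the other 8 organoids of Set 2. None of 104 named genes had a slope that differed between Set 1 and Set 4.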

How the results depend on the processing

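Of the 2-against-8 counts, those with at least 2-fold moved most: genes higher were 165 without scaling factors and 732 with the length and GC trend removed, and genes lower were 915 with a minimum count of 10, 857 after thinning and 775 with that trend removed. With Set2_8, whose profile was close to the pair, returned as an 11th organoid among the comparison organoids, 796 genes were higher and 974 lower (181 and 613 with at least 2-fold). Leaving out 1 of the 10 gave 1612 to 2780 genes higher and 2180 to 3462 lower, and 371 to 822 and 1379 to 2122 with at least 2-fold. The counts rose by over 1.5 times where 1 of the pair was left out (2532 and 3364 without Set2_2, 2780 and 3462 without Set2_6), since fewer organoids then had to lie apart. Among named genes no difference of a gene apart changed sign under the alternatives run.

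For the ratio fit the calls were 266 and 343 with DESeq2, 189 and 247 with library size, and 2575 and 2343 with Epcam alone as the score. Leaving out 1 organoid of Set 3 gave 0 to 77 positive and 0 to 166 negative calls, and 1357 to 1371 genes higher with a positive and 1835 to 1852 genes lower with a negative slope. At an unadjusted p under 0.05, the 521 genes higher with a positive and 648 genes lower with a negative slope were 262 and 351 after thinning, 243 and 365 with the replicate block, 115 and 529 without Set 1, and 260 and 174 without Set 4. With the replicate block (organoid number) 0 genes were called, 1323 genes higher had a positive and 1728 genes lower a negative slope. The numbers share only a name: the median correlation of 15 same-numbered pairs was 0.05, and 2 of 18 organoids correlated best with their own number.

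The replicate block (culture number) gave 2028 genes higher and 1991 lower in domes and changed no count by over 1.5 times. Leaving out 1 culture gave 929 to 1976 genes higher and 950 to 1921 lower in domes, 159 to 402 and 285 to 540 for those shared with the pair, and 79 to 178 and 46 to 127 for those opposed. Without the 2 organoids farthest from the Fah median the r of Fah and Epcam in Set 1 was 0.199. Fah rests on 7 to 90 counts per library in the 25 organoids, which limits the ratio; 2 organoids of 1 mouse limit the rest.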
